A study of Rattus norvegicus with 9 samples.

Results

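This account covers 10 rat genes that neurons switch on early after a stimulus: the transcription factor genes Fos, Fosl1, Jun, Junb, Jund, Egr1, Egr2, Egr3 and Nr4a1, and the synaptic gene Arc. Their members on the array are the probe sets that the platform annotation gives to exactly 1 of these symbols. There are 20 such probe sets among 8740 that are not Affymetrix controls, and each was kept separate. A probe set is a group of short probes that together report 1 transcript. The number of member probe sets is 4 each for Jun and Egr1, 3 for Fos, 2 each for Junb and Nr4a1, and 1 each for Fosl1, Jund, Egr2, Egr3 and Arc.

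The series measured RNA of the supraoptic nucleus, the hypothalamic nucleus of the large (magnocellular) neurons that secrete oxytocin and vasopressin, in male Sprague Dawley rats aged 10 to 12 weeks. The groups were controls, rats dehydrated for 1 day and rats dehydrated for 3 days, with 3 Affymetrix arrays in each. The labels name no transgene, drug or mutation, and do not say whether an array carries the RNA of 1 animal or of a pool, so p-values measure the spread between arrays, which may be partly technical. Within each group the arrays carry the letters a, b and c, whose meaning the labels do not give. No time shorter than 1 day was analysed here.

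Immediate early genes are transcribed within minutes of a stimulus by factors already present in the cell, among them the serum response factor, which binds the CArG box, and CREB, which binds the cAMP response element (CRE). Fos and Jun proteins pair to form AP-1, which binds DNA and controls later genes, while Egr proteins are zinc finger factors and Nr4a1 is an orphan nuclear receptor. Arc acts at synapses, where it promotes the removal of AMPA-type glutamate receptors. In the supraoptic nucleus Fos is widely used as a marker of neurons activated by osmotic stimuli, and transcripts of this class are short-lived.

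The promoters of Egr1 and Egr2 are shown because, of the 6 member promoters that could be searched, only these hold a CArG box. RefSeq promoter sequences (GRCr8 build, from 250 bases before the transcript start that the table uses) were matched for 6 of the 10 genes, namely Fosl1, Nr4a1, Jund, Egr1, Junb and Egr2. That start is the outer end of the gene for 4 of them, but lies 760 bases inside the annotated gene for Egr2 and 12985 bases inside it for Nr4a1. A CArG box, written as its consensus and searched on both strands, was found in Egr1 (2 matches) and Egr2 (1 match), and in 1.64% of the 33469 promoters of the same length. The CRE core, TGACG or its reverse complement CGTCA, was found in all 6, and in 21.2% of all promoters. The full CRE, TGACGTCA, which contains that core, was found in Jund (1.83% of all). An Egr site, GCGGGGGCG or GCGTGGGCG on either strand, was found in Jund and Nr4a1 (3.20% of all), and the AP-1 site, TGAGTCA or TGACTCA, in 0 of the 6 (4.63% of all). Capitals mark the CArG boxes and CRE cores in the sequences below, which read 5′ to 3′ along the gene's strand.
Egr1, GRCr8 chr18:26736828-26737127, plus strand: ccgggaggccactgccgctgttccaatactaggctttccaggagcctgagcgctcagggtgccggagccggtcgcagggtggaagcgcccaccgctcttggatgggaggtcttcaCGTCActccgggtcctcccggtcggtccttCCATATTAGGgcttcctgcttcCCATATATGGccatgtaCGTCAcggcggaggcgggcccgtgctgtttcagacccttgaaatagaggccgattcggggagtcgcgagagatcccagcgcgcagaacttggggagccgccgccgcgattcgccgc
Egr2, GRCr8 chr20:21054392-21054691, minus strand: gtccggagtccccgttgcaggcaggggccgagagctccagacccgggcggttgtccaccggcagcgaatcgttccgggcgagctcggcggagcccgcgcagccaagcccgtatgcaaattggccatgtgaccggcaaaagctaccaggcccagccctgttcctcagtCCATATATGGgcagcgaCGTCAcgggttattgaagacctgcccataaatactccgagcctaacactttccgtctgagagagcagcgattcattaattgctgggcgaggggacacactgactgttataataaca
Both windows hold CCATATATGG from base -83 to -74 and CGTCA from base -66 to -62, counted from the start base of the promoter table as 0. The match of letters is a description and not evidence of binding on these arrays.

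Across the member genes, no probe set differed between the groups at an adjusted p under 0.05. In 17 of the 20 probe sets, from 7 of the 10 genes, the mean signal over the 9 arrays reached the 40th percentile (23.1), and these were tested with limma on log2(signal + 4). After 1 day against control 0 of 17 were called (0% of 5247 probe sets tested were), after 3 days against control 0 of 17 (0%), and after 3 days against 1 day 0 of 17 (0%). A limma F test over the 3 groups likewise called 0 of 17 (0%). With the same fit and no adjustment, a p under 0.05 was reached by 1 of 17 member probe sets after 1 day (1.01% of all tested), 0 of 17 after 3 days (1.72%) and 1 of 17 between the 3-day and 1-day arrays (1.83%). The probe set concerned was rc_AA944014_at of Jun in both cases.

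The arrays of a group lay wholly on one side of the other group's for 1 member probe set in each comparison. At 1 day against control it was lower and was the same Jun probe set (4.21% of all tested did not overlap in either direction). At 3 days against control it was higher and was X54686cds_at of Junb (7.74%), and between 3 days and 1 day it was higher and was again the Jun probe set (5.72%). At 1 day 12 member probe sets had a negative and 5 a positive log2 difference, with a median of -0.12 (0.02 over all tested), which turned to 0.07 without the 1-day array of letter b and was -0.21 without 1-day c and -0.25 without control a. After 3 days 5 were negative and 12 positive, with a median of 0.17 (0.02 over all tested). Leaving out 1 array brought this median to 0.04 (3-day c), 0.07 (3-day b), 0.08 (control c) or 0.09 (control a), and over the brightest probe set of each of the 7 genes it was 0.03. Between 3 days and 1 day the split was also 5 and 12, with a median of 0.26 (0.00 over all tested), which was 0.06 without 3-day b, 0.11 without 1-day c, 0.12 without 1-day b and 0.14 without 3-day c. Over the brightest probe set of each of the 7 genes the median stayed at -0.12 at 1 day (6 negative). Between 3 days and 1 day it stayed at 0.26 (5 positive). In 15, 14 and 11 of the 17 (1 day, 3 days, and 3 days against 1 day) the difference was smaller than its own standard error (SE). Over all 5247 tested this held for 4046, 3898 and 3755 in the same order. These SEs come from the fit without the replicate letter, so differences between letters count as error. With the letter as a block the SE was smaller for all members but X17163cds_s_at of Jun (0.79 against 0.76). For example, it was 0.18 against 0.35 for Egr1 AF023087_s_at and 0.25 against 0.40 for Nr4a1 U17254_at.

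**Figure D1:**
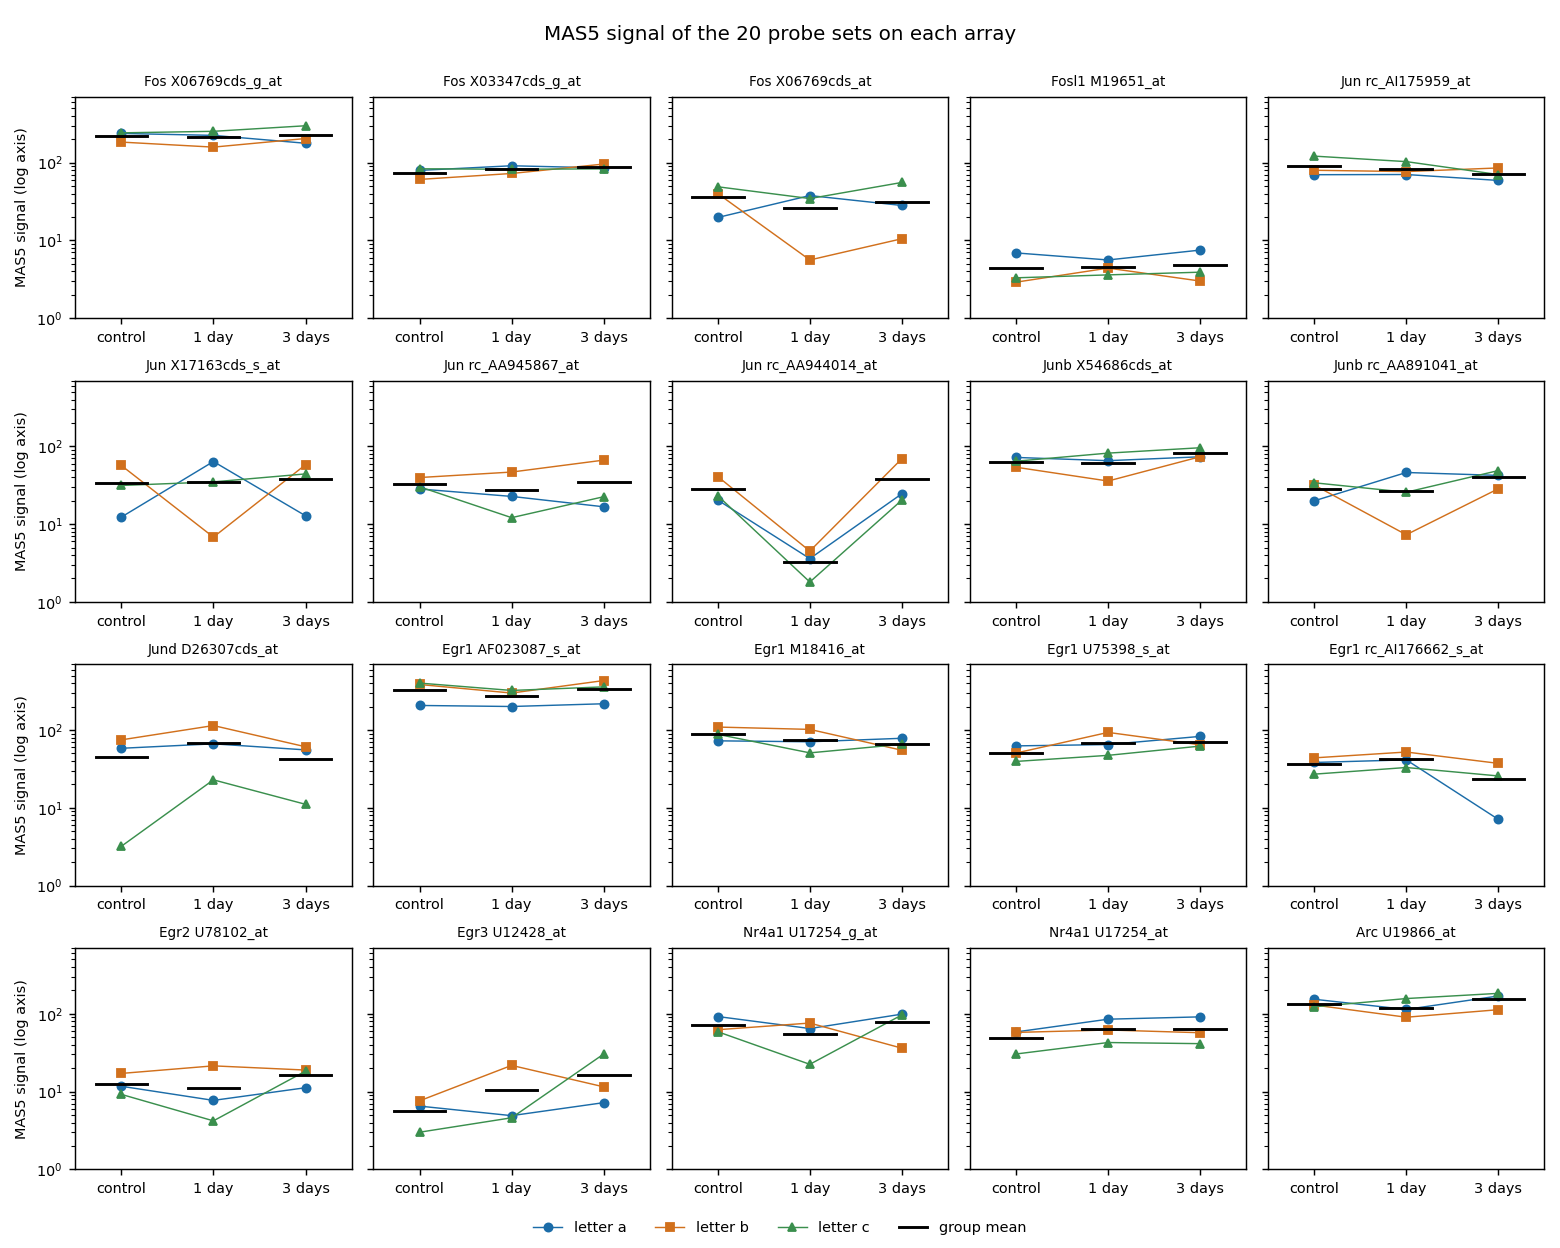
MAS5 signal (log axis) of the 20 member probe sets on every array, in the control, 1-day and 3-day groups, with 3 arrays each; thin lines join arrays of the same replicate letter and bars give group means. In the Jun probe set rc_AA944014_at the 1-day arrays lie between 1.8 and 4.5, below all others, while in most panels the groups overlap.

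Fos, the partner of Jun proteins in AP-1, did not differ beyond the spread between arrays. Its brightest probe set, X06769cds_g_at, had signals of 237.2, 183.6 and 241.4 in control (arrays a, b and c), 224.0, 158.2 and 252.6 after 1 day, and 177.4, 204.1 and 297.7 after 3 days. The lowest signal of all was a 1-day array and the highest a 3-day array, and the 3 groups overlapped. The log2 difference was -0.08 ± 0.28 (SE) at 1 day and 0.01 ± 0.28 at 3 days, with 95% intervals of 0.614- to 1.47-fold and 0.653- to 1.56-fold.

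The other Fos probe sets did not differ beyond the spread either. X03347cds_g_at ran from 60.8 to 83.3 in control, 72.5 to 91.1 after 1 day and 83.1 to 95.8 after 3 days. Its log2 difference was 0.14 ± 0.26 at 1 day and 0.24 ± 0.26 at 3 days, and the 3-day arrays overlapped the control arrays at 1 array each (83.1 and 83.3). X06769cds_at, named after the same sequence record as the brightest one, ran from 5.6 on a 1-day array to 55.6 on a 3-day array. Fosl1, a Fos-related AP-1 subunit, was measured by M19651_at, whose signals stayed between 2.9 and 7.5 on all 9 arrays. This is below the filter, and its level is not resolved by this probe set.

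Jun, the main partner of Fos, was represented by 4 probe sets, all with a negative difference at 1 day but of unlike size. rc_AA944014_at had signals of 20.4, 40.9 and 23.2 in control, 3.6, 4.5 and 1.8 after 1 day, and 24.6, 69.5 and 20.4 after 3 days. All 3 of its 1-day arrays lay below all the others, and its control and 3-day arrays overlapped. The log2 difference was -2.10 ± 0.59 at 1 day (unadjusted p = 0.0044, limma adjusted p = 1.00, 0.0947- to 0.571-fold). It was negative within each letter, at -1.68, -2.40 and -2.23. Between the 3-day and 1-day arrays the difference was 2.37 ± 0.59 (unadjusted p = 0.0021, limma adjusted p = 0.998, 2.10- to 12.7-fold). The 3-day minus control difference was 0.26 ± 0.59.

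A limit goes with this probe set: its mean signal of 23.2 lies just above the filter, which it passed through the control and 3-day arrays. On the 1-day arrays only between 8.34% and 10.4% of probe sets were dimmer, a range in which signals carry little information, so the size and p of these differences are set against values near background. The difference depends on the pseudocount, at -1.17 with 16 and -3.13 with none at 1 day, and it is absent from the test when the filter is raised to the 60th percentile. The beta-actin 3' to 5' signal ratio, a measure of RNA integrity, was also higher on the 1-day arrays (1.13 to 1.48) than on the control arrays (0.743 to 1.07), and at 3 days it was 0.991 to 1.43, overlapping the 1-day arrays. The Gapdh ratio overlapped between 1 day (0.850 to 1.05) and control (0.926 to 1.09). Whether RNA integrity plays a part was not tested.

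The remaining Jun probe sets had smaller differences at 1 day, each below its SE. rc_AI175959_at had signals of 69.9, 79.7 and 121.2 in control, 70.3, 76.7 and 103.0 after 1 day, and 59.0, 85.4 and 70.2 after 3 days, and all 3 groups overlapped. Its 1-day difference was -0.09 ± 0.30, against -0.10 ± 0.76 for X17163cds_s_at and -0.38 ± 0.57 for rc_AA945867_at. At 3 days these probe sets stood at -0.30 ± 0.30, 0.17 ± 0.76 and -0.11 ± 0.57. X17163cds_s_at ran from 6.80 to 63.8 within the 1-day group, so its SE is wide.

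Junb is another Jun family subunit of AP-1, and X54686cds_at was the member whose 3-day arrays all exceeded control. Its signals were 72.0, 53.9 and 64.4 in control, 65.4, 35.8 and 81.8 after 1 day, and 73.4, 73.5 and 95.9 after 3 days. The lowest 3-day array exceeded the highest control array by 1.40 signal units, and the 1-day arrays overlapped both groups. The log2 difference at 3 days was 0.33 ± 0.33 (limma adjusted p = 1.00, 0.754- to 2.10-fold), no larger than its error in this fit. With the letter as a block it was 0.33 ± 0.27. rc_AA891041_at, the second Junb probe set, was 0.43 ± 0.55 at 3 days and -0.32 ± 0.55 at 1 day, with overlapping groups in both.

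Jund, the Jun family subunit that is typically expressed without a stimulus, followed the replicate letter. D26307cds_at had signals of 58.3, 74.8 and 3.20 in control, 66.5, 114.3 and 22.9 after 1 day, and 55.6, 61.0 and 11.1 after 3 days. In every group the letter c array was the lowest. Its 1-day difference was 0.89 ± 0.93 and its 3-day difference was 0.24 ± 0.93; without the control array of letter c, which leaves its low 1-day partner in, the first was -0.21 and the second -0.85. Within letters a, b and c the 1-day difference was positive, at 0.18, 0.59 and 1.90, and the 3-day minus 1-day difference negative, at -0.24, -0.86 and -0.83. With the letter as a block the 1-day difference was 0.89 ± 0.39 (limma adjusted p = 0.958).

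When the letter was fitted beside the group, Jund was the only 1 of 17 member probe sets called for the letter (limma F test, adjusted p = 0.027; 3.56% of all tested were called), with a letter c minus letter a difference of -2.16 on the log2 scale. Egr1 AF023087_s_at came next, at an adjusted p of 0.0516. The range of the 3 letter means exceeded the range of the 3 group means in 12 of 17 members (70.6%) and in 3860 of all 5247 tested (73.6%).

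**Figure D2:**
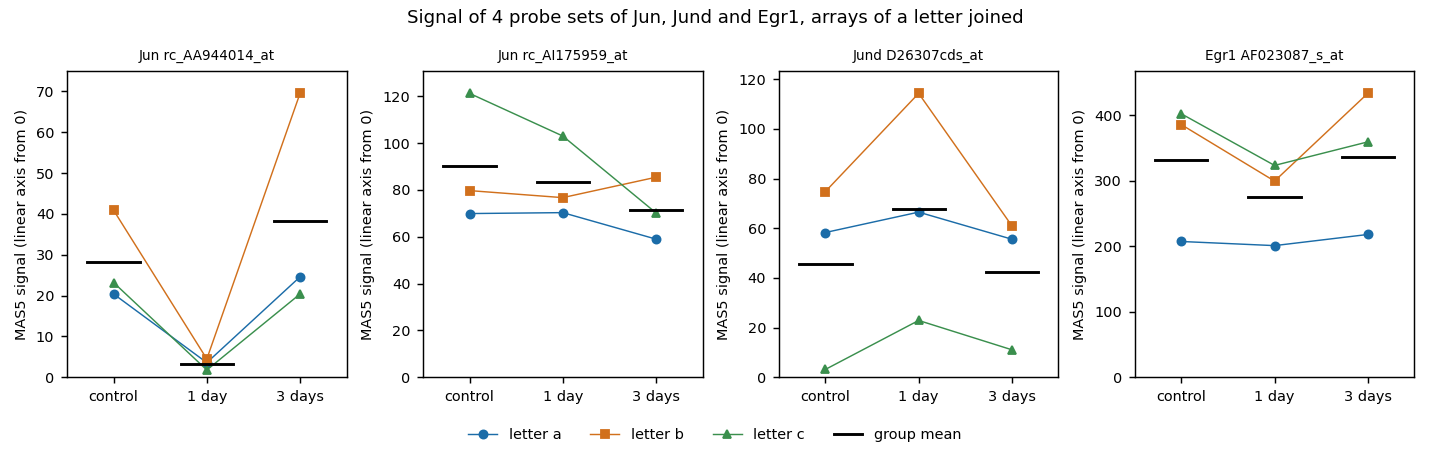
MAS5 signal (linear axis) of a pair of Jun probe sets, of Jund and of the brightest Egr1 probe set, by group (control, 1 day, 3 days), with lines joining arrays of the same letter. In Jund all letter c arrays lie at or below 22.9 and in Egr1 all letter a arrays lie at or below 217.9, while the Jun probe set rc_AA944014_at is lowest on all 1-day arrays and the other Jun probe set is not.

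Egr1, a zinc finger factor induced by neuronal activity, was measured by 4 probe sets, of which 0 were called in any comparison. AF023087_s_at, the brightest, had signals of 207.2, 385.4 and 401.9 in control, 200.9, 299.3 and 323.2 after 1 day, and 217.9, 433.1 and 359.1 after 3 days. The letter a arrays were the lowest in every group, and the groups overlapped. The 1-day difference was -0.24 ± 0.35 (0.496- to 1.45-fold) and the 3-day difference 0.03 ± 0.35 (0.595- to 1.74-fold). Its 1-day difference was negative within each letter, at -0.04, -0.36 and -0.31, and the 3-day minus 1-day difference was positive within each, at 0.11, 0.53 and 0.15.

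The other Egr1 probe sets pointed in different directions. U75398_s_at stood at 0.37 ± 0.33 after 1 day and 0.44 ± 0.33 after 3 days, and was positive within every letter in both. M18416_at stood at -0.29 ± 0.32 and -0.41 ± 0.32, and rc_AI176662_s_at at 0.19 ± 0.50 and -0.74 ± 0.50. In rc_AI176662_s_at the 3-day signals were 7.10, 37.3 and 25.7 against 38.3, 43.9 and 27.1 in control, and the 3-day difference was -0.18 without the letter a array of that group. By Affymetrix naming, the suffix _s_at marks a probe set that can share probes with another transcript. This applies to 3 of the 4 Egr1 probe sets and to X17163cds_s_at of Jun.

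Egr2 and Egr3, related zinc finger factors, were not tested because their signals were below the filter. Egr2, U78102_at, ran between 9.20 and 17.1 in control, 4.20 and 21.4 after 1 day, and 11.2 and 18.9 after 3 days. Egr3, U12428_at, had signals of 6.50, 7.60 and 3.00 in control, 4.90, 21.7 and 4.60 after 1 day, and 7.20, 11.5 and 30.4 after 3 days. The 3-day arrays of Egr3 overlapped control, with the highest signal on the letter c array.

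Nr4a1, an orphan nuclear receptor, gave opposite signs at 1 day in its 2 probe sets. U17254_at had signals of 58.4, 57.6 and 30.4 in control, 85.2, 61.9 and 42.7 after 1 day, and 91.3, 57.1 and 41.3 after 3 days. U17254_g_at, from the same sequence record, had 92.2, 62.4 and 58.8 in control, 64.6, 76.0 and 22.4 after 1 day, and 99.0, 36.1 and 96.8 after 3 days. The groups overlapped in both. At 1 day the differences were 0.35 ± 0.40 and -0.49 ± 0.50, and at 3 days 0.33 ± 0.40 and 0.02 ± 0.50.

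Arc, which is not a transcription factor, had signals of 153.8, 129.7 and 122.9 in control, 113.7, 90.3 and 157.0 after 1 day, and 169.4, 112.9 and 183.1 after 3 days in U19866_at. The lowest signal lay at 1 day and the highest at 3 days, with overlap between all groups. The difference was -0.19 ± 0.29 at 1 day (0.559- to 1.37-fold), 0.17 ± 0.29 at 3 days (0.718- to 1.76-fold) and 0.36 ± 0.29 between the 3-day and 1-day arrays, where it was positive within each letter at 0.56, 0.31 and 0.22.

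**Figure D3:**
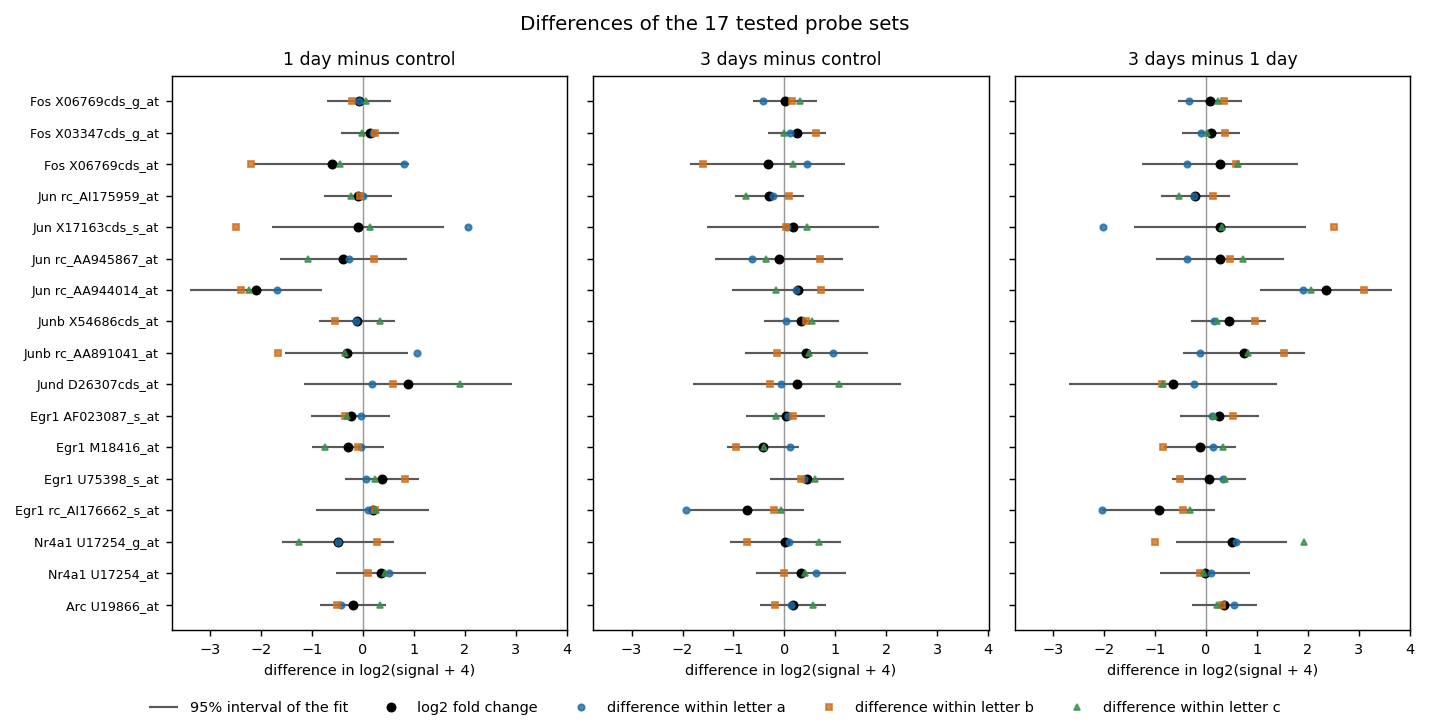
Log2 difference of each of the 17 tested member probe sets for 1 day against control, 3 days against control and 3 days against 1 day, with 95% limma intervals and the differences within letters a, b and c. Every interval spans 0 except those of the Jun probe set rc_AA944014_at at 1 day (-2.10) and between 3 days and 1 day (2.37).

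Probe sets of the same gene did not track each other closely. Over the 17 same-gene pairs of tested probe sets, Pearson's r across the 9 arrays had a median of 0.143 and ran from -0.471 to 0.739. By exact permutation test 1 pair reached an unadjusted p under 0.05 and 0 of 17 after Benjamini-Hochberg adjustment. That pair was Junb (r = 0.739, exact permutation p = 0.0411, adjusted p = 0.498; Spearman's rho = 0.350, exact permutation p = 0.359, adjusted p = 0.983), and r was -0.302 without the 2 arrays farthest from the median, so that the relation rests on those arrays. The same omission, with the arrays chosen by the first probe set of a pair, moved other pairs both ways. For Jun, r rose from 0.078 to 0.931 for rc_AI175959_at with rc_AA945867_at. It fell from 0.557 to -0.113 for rc_AA945867_at with rc_AA944014_at. The members of a pair had the same sign in 10 of 17 at 1 day, 7 of 17 at 3 days and 9 of 17 between 3 days and 1 day.

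As a description with no test, the probe sets of other genes most like the brightest Fos probe set, out of 4350 searched over the 9 arrays, were Klf9 D12769_at (r = 0.944), Zfp622 (0.932) and Copb2 (0.929). Those most like Egr1 AF023087_s_at, out of 4349, were Pebp1 (0.943), Ric8a (0.927) and Lipa (0.927). The arrays share the replicate letter and the platform, and a search over this many probe sets returns high values.

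**Figure D4:**
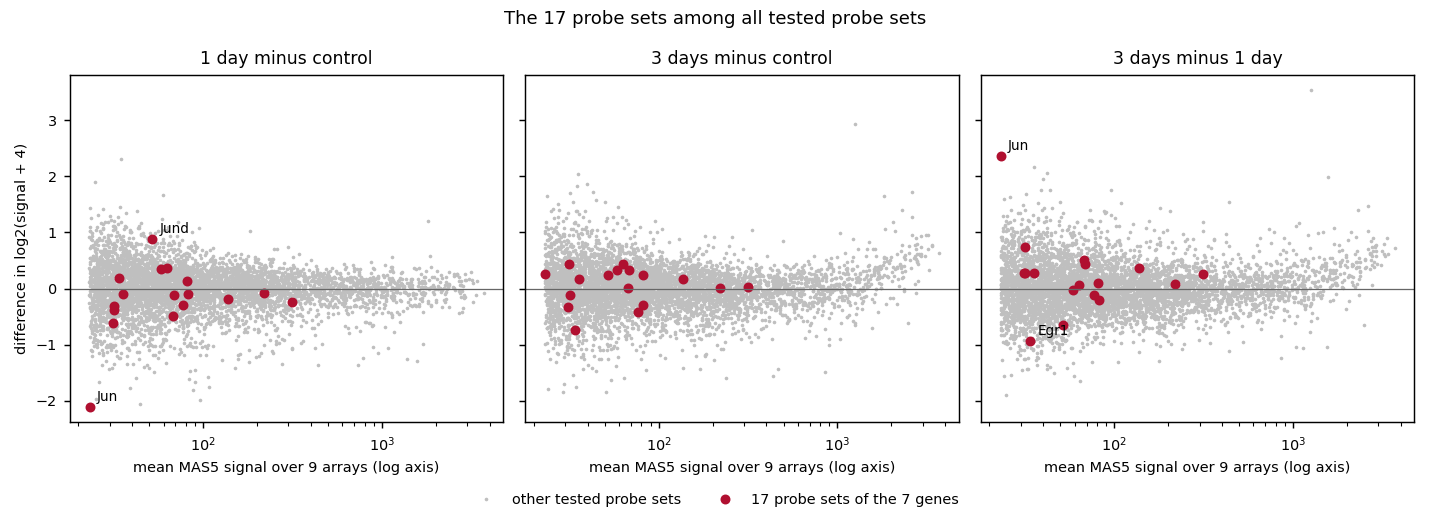
Log2 difference against mean signal (log axis) for all 5247 tested probe sets, with the 17 member probe sets marked, for 1 day against control, 3 days against control and 3 days against 1 day. The Jun probe set rc_AA944014_at stands at the lower edge at 1 day, at -2.10, and near the upper edge between 3 days and 1 day, at 2.37, while the other members lie among the rest.

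Related genes were read from lists in the same fit, with 1 probe set per gene, the brightest, and no list test. Of 25 other AP-1, ATF and CREB family genes, 11 were tested; 0 were called by limma and 0 had an unadjusted p under 0.05 in any comparison. Their median log2 difference was -0.06 at 1 day, 0.07 at 3 days and 0.13 between the times. Fosl2, a Fos family subunit, stood at 0.78 ± 0.41 after 1 day, and Jdp2, a repressor that pairs with Jun, at -1.10 ± 0.64 after 3 days. The Jdp2 signals were 27.2, 6.20 and 27.0 after 3 days, against 38.7, 43.8 and 43.7 in control, without overlap. Jdp2 was the 1 of 11 without overlap at 3 days (7.74% of all tested in either direction). Creb1 stood at -0.06 ± 0.49 after 1 day, and Atf3, a stress-induced factor, at -0.60 ± 0.57.

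Of 59 other activity-regulated genes, 31 were tested, with medians of 0.00, 0.13 and 0.14 in the same order and 0 called by limma. The 1 with an unadjusted p under 0.05 was Klf9, a Krüppel-like factor, at 1 day (1 of 31, against 1.01% of all tested). D12769_g_at of Klf9 had signals of 249.3, 170.7 and 92.1 after 1 day, against 254.7, 386.8 and 276.3 in control, without overlap (-0.91 ± 0.36, unadjusted p = 0.0298 in limma). The other Klf9 probe set, D12769_at, stood at -0.05 ± 0.24. Homer1, a postsynaptic scaffold gene, stood at -0.47 ± 0.38 after 1 day, and Dusp1, a phosphatase that inactivates MAP kinases, at 0.24 ± 0.63. Vgf, a secreted neuropeptide precursor, had 662.9, 642.1 and 666.3 after 1 day, against 477.1, 583.9 and 570.0 in control, without overlap (0.28 ± 0.24). Of the 31, 1 was higher (Vgf) and 1 lower (Klf9) without overlap at 1 day, against 4.21% of all tested in either direction.

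Of 49 kinases and factors upstream of these genes, 17 were tested and 0 were called by limma, with medians of 0.01, 0.07 and 0.01. Camk2b, a calcium/calmodulin-dependent kinase subunit, had 1064.6, 989.8 and 1955.1 on the 3-day arrays, against 756.2, 838.4 and 776.5 on the 1-day arrays, without overlap (0.69 ± 0.29, unadjusted p = 0.0364 in limma). In that comparison it was the 1 of 17 without overlap (5.72% of all tested in either direction). It was also the 1 of 17 with an unadjusted limma p under 0.05 (1.83% of all tested). Prkar1a, a regulatory subunit of protein kinase A, stood at 0.44 ± 0.26 after 1 day, with no overlap with control (1 of 17, against 4.21% of all tested). Srf, Elk1 and Btg2 had no probe set with 1 symbol.

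Of 20 neuropeptide, secretory and synaptic genes reported to carry AP-1, CRE or Egr sites, 17 were tested; 0 were called by limma in any comparison, with medians of 0.13, 0.09 and -0.10. Unadjusted p under 0.05 was reached by 2 of 17 at 1 day, 3 of 17 at 3 days and 1 of 17 between the times, all higher (1.01%, 1.72% and 1.83% of all tested probe sets in either direction). The list was chosen with earlier results of these data known, so these counts are not independent support for a response of such genes. At 1 day the 2 genes were Th, which makes the precursor of dopamine and other catecholamines, at 0.70 ± 0.27, and Cck, the cholecystokinin gene, at 1.16 ± 0.51. At 3 days Avp, the vasopressin gene, stood at 0.95 ± 0.33, with 3871, 4108 and 5678 after 3 days against 2868, 2487 and 1765 in control. Cck stood at 1.57 ± 0.51 and Th, named after its value was seen, at 0.75 ± 0.27 at 3 days, and the gene between the times was Avp, at 0.80 ± 0.33. Pdyn, a dynorphin precursor, stood at 0.58 ± 0.29 and Oxt, the oxytocin gene, at 1.72 ± 1.05 at 3 days. The Oxt value rests partly on a control array of letter c at 208.3. Other genes of the list were lower: Chgb at -0.57 ± 0.30 and Tac1 at -0.47 ± 0.33 at 3 days, and Gap43 at -0.38 ± 0.23 between the times. Of the 17, 14 were higher and 3 lower at 1 day, 9 and 8 at 3 days, and 8 and 9 between the times.

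Markers of cell types moved with the groups in part. The summed signal of the 6 magnocellular markers on the array was 3212 to 7002 in control, 3117 to 7743 after 1 day and 8786 to 11570 after 3 days, with no overlap of the 3-day arrays and the rest. Most of this sum was Avp and Oxt on array a of control (2868 and 3074 of 7002) and of 3 days (3871 and 3910 of 8972). The lowest control and 1-day sums were on the letter c arrays, where Oxt was 208.3 and 272. It is thus largely a reading of these hormone transcripts. For 9 astrocyte markers the summed signal was 8381 to 13657, 8523 to 13953 and 13808 to 18203. For 8 endothelial, mural and blood markers (Vwf and Kdr were below the filter) it was 2159 to 2531, 2253 to 3199 and 1370 to 2046, with the 3-day arrays below all the rest. For 9 microglial markers (Aif1, Itgam, Csf1r and Cd74 were below the filter) it was 1307 to 1394, 1499 to 1982 and 1488 to 1600. In the remaining lists the groups overlapped. For 9 markers of neurons in general the sum was 5437.5 to 7181.2, 5767.3 to 6940 and 6615 to 7450. For 7 oligodendrocyte markers it was 4861.5 to 7799.5, 3864.2 to 8239.6 and 3359.8 to 8172.5. For 11 markers of neighbouring hypothalamic nuclei (Crh, Vip and Pomc were below the filter) it was 1890.6 to 3769.7, 2090.2 to 3083.2 and 1838.5 to 3023.1. Letter c arrays of the 1-day and control groups topped out at 2239 and 2105, and the remaining arrays reached 3867 to 6295. The part of these differences in the member values was not tested, and in bulk tissue fewer cells of a type and less RNA per cell cannot be told apart.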

How the data were processed

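The authors deposited 1 table of 9 Affymetrix arrays whose values are linear intensities. Per the submitters' processing notes the tool was MAS5, which sets perfect-match against mismatch probes to give each probe set 1 signal. Its version and a genome build are not given in the sources used here, and detection calls were not used here. On each array the mean, trimmed by 2% at each end, is 100.1. Of 8799 rows, 59 Affymetrix controls were left out. Of the 8740 others, 7006 have 1 symbol in the platform annotation, 308 several and 1426 none; all 10 member genes matched RefSeq by gene ID.

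From the deposited intensity values, log2(signal + 4) was computed, 4 being the rounded 10th percentile; differences on this scale understate the change of dim probe sets. limma 3.58.1 (R 4.3.3) fitted 3 group means to 9 arrays with an intensity trend, two-sided moderated tests and Benjamini-Hochberg adjustment over 5247 probe sets at 0.05. The number of arrays limits the precision. Figures used Python 3.11.15 and matplotlib 3.10.9, and exact permutation tests scipy 1.17.1.

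The replicate letters in the titles pair the arrays: after subtraction of group means, all 9 same-letter pairs correlated over the tested probe sets (r = 0.171 to 0.472), against -0.329 to 0.117 for 18 different-letter pairs. The letter block was an alternative, beside other pseudocounts, filters, scalings and variance priors, fits restricted to the 2 groups of a comparison, and each array left out. The genes named are all member probe sets, up to 2 genes per direction, list and comparison with the smallest p from which examples are given, and fixed genes of interest. Members and lists were chosen with earlier results of these data known.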

Additional observations from a re-analysis of the deposited data

How the results depend on the processing

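Under 21 alternatives, of which 2 were chosen after seeing the data (a fit without control c and 1-day c, and no filter together with the letter block), 0 of the member probe sets were called in any comparison, and the lowest limma adjusted p of a member was 0.771. With the replicate letter as a block, 0 of 17 member probe sets were called in each comparison, and the block changed no call; Jund at 1 day had an unadjusted limma p of 0.0485 with it. Of the 51 member log2 differences, 26 kept their sign under every alternative that kept the probe set in the test (the stricter filter did not keep all) and 25 changed it under at least 1; the largest of these was Jund at 1 day, 0.89, which was -0.21 without control c but positive within all 3 letters. The 1-day median over the members, -0.12, was 0.07 without the 1-day array b and otherwise negative, down to -0.25 without control a. The 3-day median, 0.17, ran from 0.04 to 0.17, and that between 3 days and 1 day, 0.26, from 0.06 to 0.27; among other settings it was 0.09 with the stricter filter, while a pseudocount of 16 gave 0.07 and 0.16, and quantile normalization gave -0.22 at 1 day and 0.09 at 3 days. Over the 20 alternatives that kept it, Jun rc_AA944014_at stayed negative at 1 day, from -3.13 to -1.17, with unadjusted limma p between 0.00077 and 0.0252, and positive between 3 days and 1 day, from 1.38 to 3.41; its place among the negative differences at 1 day ran from 1 to 17. These alternatives reuse the same arrays, with 1-day signals near background. The probe set passed the filter through its control and 3-day arrays. Its constant sign and p are therefore not independent support for the difference. With 3 arrays per group the median SE of a member log2 difference was 0.40 in the fit without the letter. None of the tested probe sets was called, though log2 differences over all tested reached 2.94 at 3 days and 3.53 between 3 days and 1 day. Differences well above 0.40 could therefore also go uncalled. Signals near 0 carry little information.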
